A study of Mus musculus with 24 samples.

Results

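Rab GTPases are small G proteins that mark the membranes of the cell, and 42 of their genes were present among the 10721 genes of the table. They were taken as every gene whose symbol is Rab followed by a number and at most 1 letter from a to d, so relatives with other names (Rabl2, Rabl3, Rabl5, Rab7l1) lay outside the rule. Rab genes absent from the table could not be counted, so the sums, shares and ranks below cover these 42 alone. Of the 42, 40 reached a mean of 1 FPKM (sequenced fragments per kilobase of transcript, scaled by the mapped fragments of the library) in at least 1 group and were tested. Rab30, a Golgi Rab, and Rab37, a Rab of regulated secretion, did not reach it. The cells were osteoclast precursors grown from bone marrow of female mice aged 10 to 12 weeks, either wild type (WT; mice 480, 529 and 531) or STING-deficient (KO; mice 481, 528 and 532). STING is the adaptor through which cytosolic DNA switches on type I interferon, and what was changed in the mutant gene is not stated in the labels. All cells had first been expanded for 72 hours in 40 ng/mL mCSF, the macrophage growth factor. The day 0 groups were harvested at that point, without RANKL, the cytokine that turns precursors into bone-resorbing osteoclasts. The day 2, 3 and 4 groups were replated at 25000 cells per well and grown in RANKL at 10 ng/mL together with mCSF at 20 ng/mL, and wells of a mouse were pooled. Each of the 6 mice gave 1 library per time point, 24 in all and 3 in each of 8 groups. Days 2 to 4 have no cultures that lacked RANKL, so RANKL, the lower mCSF dose, replating and time in culture cannot be told apart.

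A Rab protein alternates between a GDP-bound form held in the cytosol by GDI and a GTP-bound form on a membrane, where it recruits effectors that move, tether and fuse vesicles. Exchange factors (GEFs) load GTP and GTPase-activating proteins (GAPs) end the active state. Osteoclasts resorb bone through the ruffled border, a stretch of plasma membrane built by fusion of late endosomes and secretory lysosomes, and Rab7 is known to be needed for it.

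The gene of STING, named Tmem173 in the table, checks the labels. It stood at 28.7, 25.4 and 21.3 FPKM for WT at day 0 and at 5.08, 4.57 and 4.89 FPKM for KO. It was lower in all 3 KO samples, a log2 difference of -2.15 (limma with Benjamini-Hochberg adjustment, adjusted p = 8.26e-06). In WT it fell to 4.44 FPKM by day 4, where KO averaged 2.79 FPKM (-0.51, adjusted p = 0.224). The summed FPKM of the table ran from 459180 to 734974 per sample, and absolute read depth is not given in the sources used here. Steps between low values put the relative depth of the WT day 3 library of mouse 531 at 0.688 and 0.686 of the other WT day 3 libraries, while all other pairs within a group gave 0.938 to 1.17. Day 0 samples varied most: the median over tested Rab genes of the SD between mice was 0.193 (WT) and 0.202 (KO) on the log2 scale at day 0 and 0.068 to 0.103 later. The summed FPKM of 8 osteoclast markers (such as Ctsk and Acp5) went from 56.8 to 163 at day 0 to 41200 to 49800 at day 4 over both genotypes. The macrophage and monocyte sum of 7 markers was 2410 to 3500 at day 0 and 3160 to 3930 at day 4. The neutrophil sum of 7 markers went the other way, from 5580 to 15300 at day 0 to 61.3 to 149 at day 4, as did those of 3 megakaryocyte markers (448 to 1570, then 18 to 40.9) and 5 B cell markers (22.3 to 102, then 0.162 to 0.518). No neutrophil marker was at 0 in every sample of a group, and none of 4 T and NK cell markers was among the genes of the table. In such bulk samples fewer cells of a type and less RNA per cell cannot be told apart.

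The summed FPKM of the 42 Rab genes of the table was close at day 0 and day 4, while its make-up differed. This summed FPKM was 2052 ± 74.4 (SD, n = 3) in WT at day 0, 1667 ± 46.6 at day 2, 1894 ± 30.3 at day 3 and 1997 ± 45.1 at day 4. KO gave 2019 ± 141, 1658 ± 25.7, 1899 ± 46.1 and 2013 ± 30.7 at the same days. FPKM are per transcript length, so levels can be ranked between genes. At WT day 0 the most abundant were Rab5c (285 FPKM), Rab1 (255), Rab1b (195) and Rab7 (124). The ranges of Rab5c and Rab1 overlapped there, whereas those of Rab1 and Rab1b, and of Rab1b and Rab7, did not. At WT day 4 Rab7 led with 412 FPKM, followed by Rab5c (198), Rab1b (156), Rab1 (126) and Rab38 (119.7). Of these, only the ranges of Rab1 and Rab38 overlapped. Rab38 had stood in place 35 of 42 at day 0 and stood in place 5 at day 4. The lowest at WT day 4 were Rab44 (0.0496 FPKM) and Rab37 (0.0148 FPKM).

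Over the whole course, tested as log2(FPKM + 1) with limma at an adjusted p of 0.05, 12 of the 40 Rab genes rose and 19 fell in WT from day 0 to day 4. The share of all 10081 tested genes that rose was 39.2%, and 42.7% fell, so the Rab counts (30% and 47.5%) lay near the background of this table. In KO 13 rose and 15 fell, against a background of 38.6% and 40.8%. The median log2 change of the 40 was -0.29 in WT and -0.17 in KO, beside -0.07 and -0.05 over all genes. Counted mouse by mouse, 12 genes were higher at day 4 than at day 0 in all 6 mice and 19 were lower in all 6, beside 39.8% and 42.5% of all genes, and 9 were mixed.

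**Figure D1:**
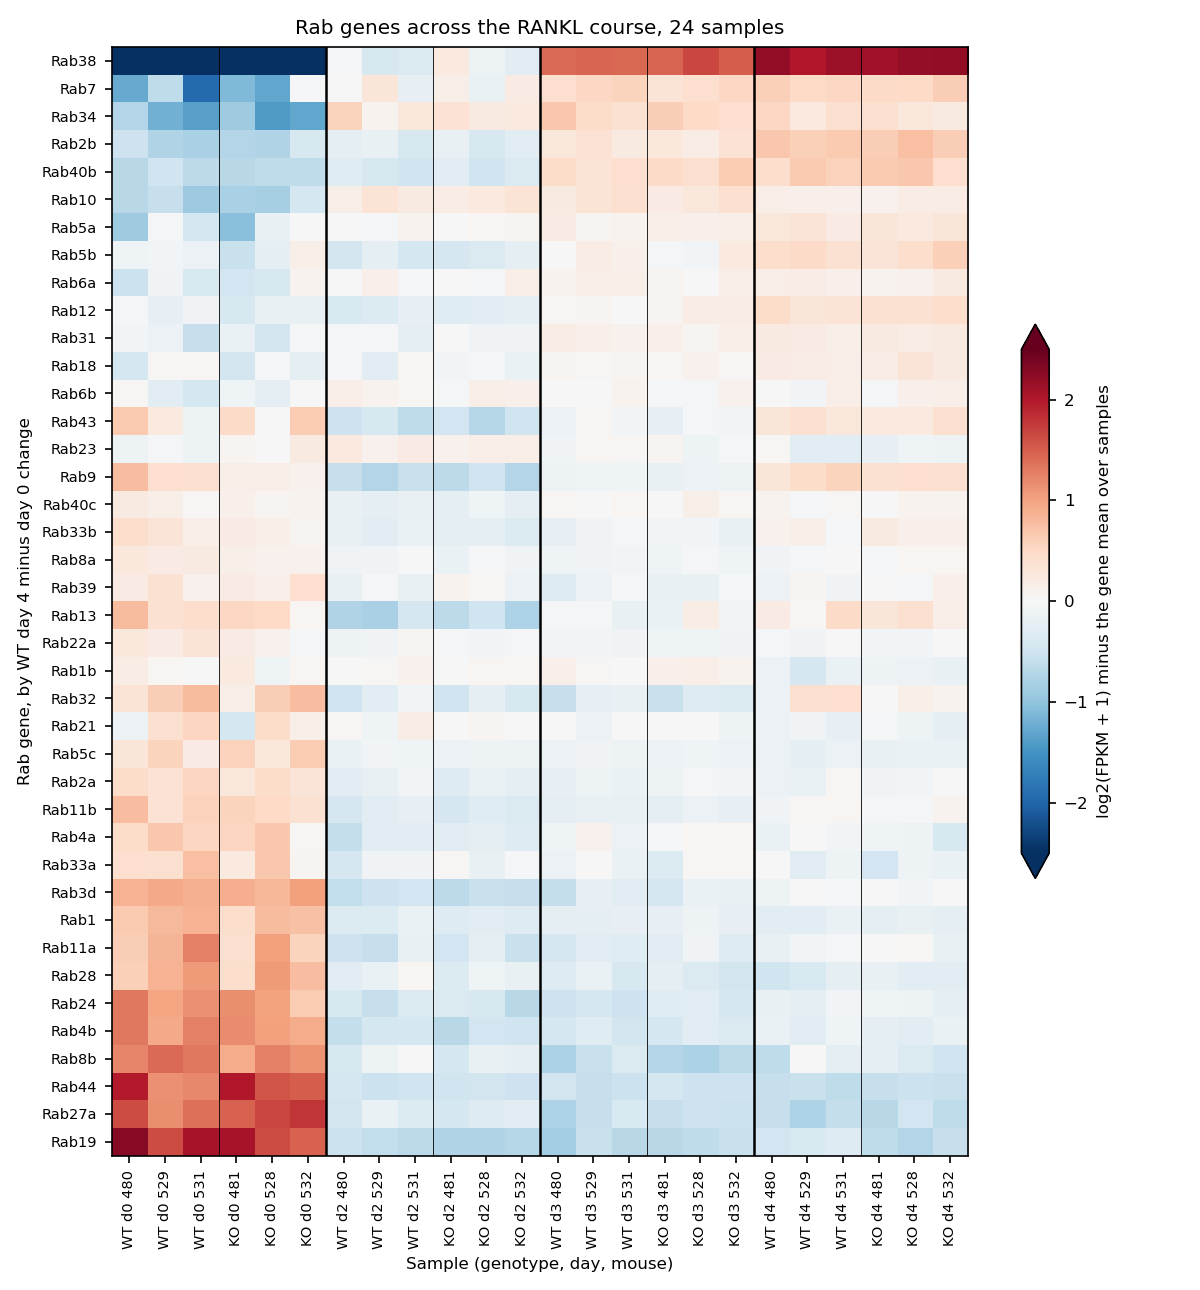
Heat map of the 40 tested Rab genes (rows, ordered by their WT change from day 0 to day 4) in the 24 samples (columns, by day, genotype and mouse); colour is log2(FPKM + 1) minus the gene's mean over the samples and Rab38 at day 0 lies beyond the colour scale, which ends at 2.5 in each direction. Rab38, Rab7 and Rab34 go from blue at day 0 to red later, Rab19, Rab27a and Rab44 go the other way, and WT and KO columns of a day look alike.

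The 5 Rab genes of late endosomes and lysosomes shifted most in bulk, through Rab7. Their summed FPKM went from 168 to 274 in the WT day 0 samples to 481 to 514 at day 4, from 11% to 24.9% of the FPKM of the 42 Rab genes. Rab7 and Rab34 rose, Rab24 fell, and Rab9 and Rab39 did not pass the test in WT from day 0 to day 4 (all genes: 39.2% rose and 42.7% fell).

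Rab7, which drives the fusion of late endosomes with lysosomes, lies on chromosome 6 (87999106 to 88045270, GRCm38). WT values were 118, 182 and 72.4 FPKM before RANKL and 430.5, 398 and 408 FPKM at day 4. The KO samples gave 131, 114 and 275 FPKM at day 0 and 392, 399 and 432 FPKM at day 4. Every day 4 sample was above every day 0 sample, and day 0 was the time of wide spread, with mouse 531 lowest and KO mouse 532 highest. The log2 change was 1.82 in WT (SE 0.242, limma adjusted p = 9.17e-07) and 1.34 in KO (SE 0.242, adjusted p = 4.38e-05). Most of the rise came by day 2, when the WT mean was 294 FPKM, with 400.3 at day 3. A pseudogene, Rab7-ps1, matches the Rab7 transcript at 98.39% over 622 bases, so reads could be split between them.

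Rab34, which positions lysosomes and acts in cilium formation, lies on chromosome 11 (78188427 to 78192193). At day 0 its FPKM were 11.7, 8.07 and 7.22 for the WT mice and 10.3, 6.84 and 7.52 for the KO mice. By day 2 the WT samples stood at 30.0, 21.3 and 24.6 FPKM and the KO samples at 25.9, 23.5 and 23.7 FPKM, all above every day 0 sample. The day 4 levels were 28.9, 23.9 and 26.7 FPKM in WT and 26.6, 24.5 and 23.7 in KO, log2 changes from day 0 of 1.48 and 1.51 (SE 0.173 and 0.173, limma adjusted p = 1.56e-07 and 1.24e-07). Neither later step passed in WT (0.19 and -0.12, adjusted p = 0.15 and 0.379), but the first did with the mouse as a replicate block (adjusted p = 0.0201).

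Rab24, a Rab linked to autophagy, lies on chromosome 13 (55319223 to 55321980). Its values were 55.6, 44 and 49.2 FPKM at WT day 0 and 19.1, 18.5 and 20.6 FPKM at WT day 4, with 49.9, 44.9 and 34.3 and 20.2, 19.8 and 18.3 FPKM in KO. On the log2 scale Rab24 fell by 1.30 (WT) and by 1.09 (KO) (limma adjusted p = 1.89e-08 and 2.38e-07), with no overlap. The value of Rab24 is uncertain: 62.4% of its exon bases overlap Prelid1 on the other strand, and whether the counting used strand is not given in the sources used here. Prelid1 itself went from 494.3 ± 63.5 FPKM at WT day 0 to 177.6 ± 17.0 at day 4.

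Rab9, which returns mannose 6-phosphate receptors from late endosomes to the Golgi, lies on chromosome X (166457251 to 166479867). Its course had a dip: 49.8, 38.7 and 38.2 FPKM at WT day 0, 18.9, 16.9 and 19.1 at day 2, 26.2, 26.4 and 26.6 at day 3 and 35.4, 39.7 and 42.5 at day 4. It fell by 1.16 on the log2 scale to day 2 (limma adjusted p = 6.81e-09), then rose by 0.51 and by 0.55 in the next steps (adjusted p = 4.47e-06 and 3.62e-06). These neighbouring steps share the samples of the day between them. From day 0 to day 4 the WT groups overlapped (log2 change -0.10, 95% interval -0.32 to 0.12). Rab9b-ps1, a pseudogene, matches 606 bases of its transcript at 96.86%.
Rab39, linked to phagosome acidification, was the scarcest of the 5 with 1.05, 1.33 and 0.926 FPKM at WT day 0 and 0.615, 0.867 and 0.692 FPKM at day 4 (log2 change -0.28, limma adjusted p = 0.0553, and 0.0392 with the mouse as a replicate block). This change of Rab39 also passed with equal weights, with no filter and with median scaling.

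Promoters of 4 Rab genes are shown as examples, of 3 that rose and 1 that fell over the course. All 34 matched promoters were searched for letters bound by factor families known in osteoclasts. Each run is 300 bases, from 250 before to 50 after the RefSeq start (GRCm38.p6), 5′ to 3′ on the gene's strand. Capitals mark matches on either strand to CACGTG (an E-box), TCATGTG (an M-box, bound by factors of the MiT family) or TGANTCA (the AP-1 motif), which were the motifs searched.
Rab7, chr6:88045221-88045520, minus strand: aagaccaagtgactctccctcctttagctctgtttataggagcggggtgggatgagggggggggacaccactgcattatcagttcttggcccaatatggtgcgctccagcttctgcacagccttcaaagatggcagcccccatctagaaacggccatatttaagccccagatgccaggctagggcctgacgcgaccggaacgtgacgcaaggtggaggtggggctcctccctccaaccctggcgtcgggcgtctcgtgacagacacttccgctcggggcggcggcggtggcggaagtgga
Rab34, chr11:78188177-78188476, plus strand: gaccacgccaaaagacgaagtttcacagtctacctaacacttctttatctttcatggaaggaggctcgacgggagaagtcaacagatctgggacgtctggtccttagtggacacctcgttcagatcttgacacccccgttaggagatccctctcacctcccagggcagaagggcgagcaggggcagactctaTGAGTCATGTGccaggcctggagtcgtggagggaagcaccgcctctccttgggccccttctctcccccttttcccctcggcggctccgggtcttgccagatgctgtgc
Rab5a, chr17:53478984-53479283, plus strand: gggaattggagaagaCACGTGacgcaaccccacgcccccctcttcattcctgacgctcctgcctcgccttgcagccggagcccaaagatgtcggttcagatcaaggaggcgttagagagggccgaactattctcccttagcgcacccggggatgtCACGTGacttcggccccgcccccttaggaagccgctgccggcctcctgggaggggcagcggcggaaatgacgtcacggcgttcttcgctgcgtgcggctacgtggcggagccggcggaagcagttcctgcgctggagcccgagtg
Rab27a, chr9:73044560-73044859, plus strand: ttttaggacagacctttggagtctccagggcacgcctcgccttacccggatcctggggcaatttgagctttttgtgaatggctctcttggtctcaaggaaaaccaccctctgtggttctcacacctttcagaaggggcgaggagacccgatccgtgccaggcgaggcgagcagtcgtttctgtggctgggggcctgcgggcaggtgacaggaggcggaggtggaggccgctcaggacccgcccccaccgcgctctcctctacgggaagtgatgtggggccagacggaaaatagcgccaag
In Rab34 the AP-1 letters begin at -58 and the M-box letters at -54 from the start, so the capitals are 2 matches that overlap. In Rab5a the E-box occurs at -235 and at -95. Rab7 and Rab27a hold none of the 3 motifs in this window.
Promoters of 34 of the 42 members were in the RefSeq table, and 4 held the E-box (11.8%), beside 10.5% of the promoters of 7738 genes of the expression table and 7.2% of all 27025 promoters. The M-box letters occurred in 2 of 34 (5.9%, beside 2.2% and 3.7%) and the AP-1 letters in 1 of 34 (2.9%, beside 5.1% and 7.9%). Split by the WT change from day 0 to day 4, the E-box occurred in 1 of the 10 risers with a promoter (Rab5a) and in 2 of the 15 fallers (Rab21 and Rab24). The M-box occurred in 1 riser (Rab34) and 1 faller (Rab28). These fallers are not among the promoters shown. Members not matched were Rab1, Rab2a, Rab4a, Rab18, Rab30, Rab37, Rab38 and Rab44.

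**Figure D2:**
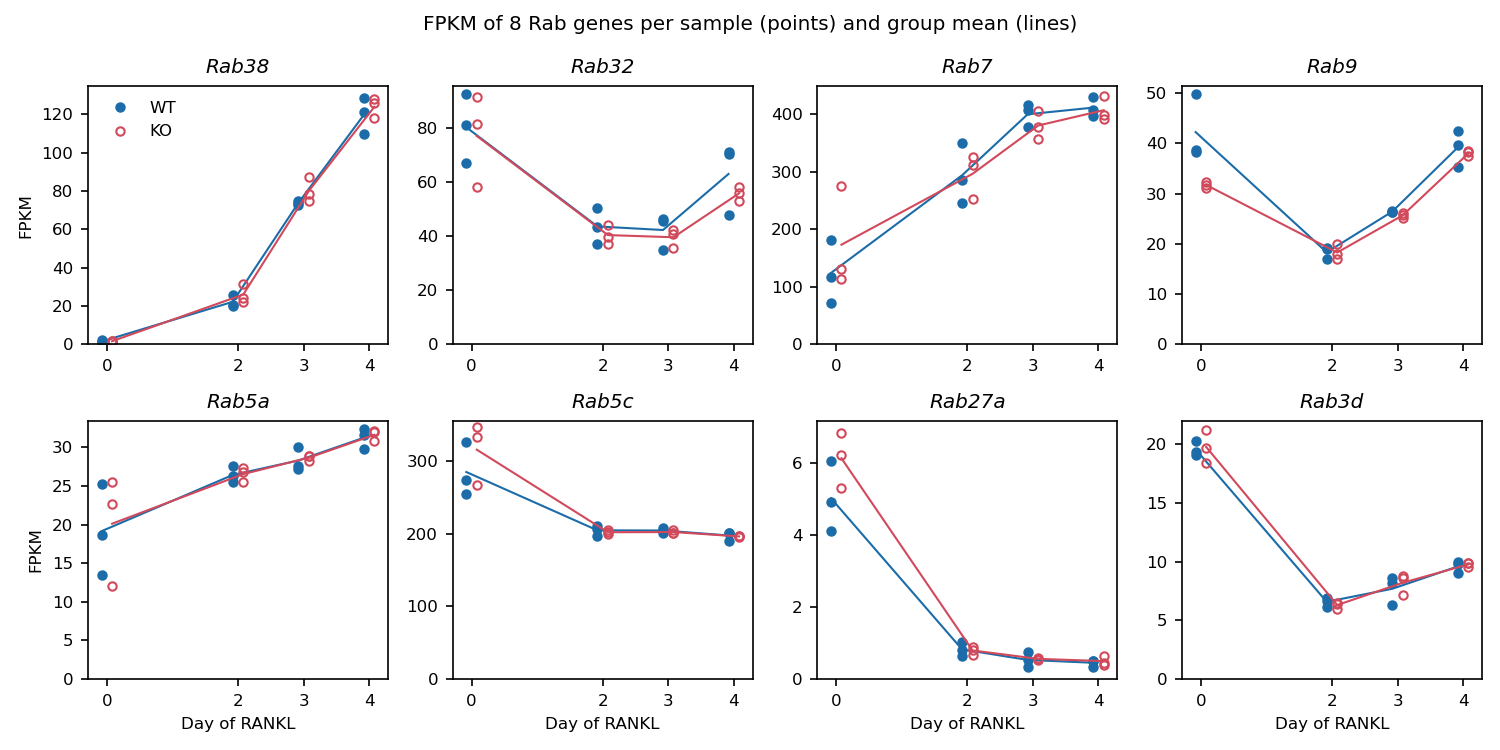
FPKM (vertical axis, linear from 0) of 8 Rab genes by day of RANKL (horizontal axis), with filled points for the 3 WT samples, open points for the 3 KO samples and lines for group means. Rab38 climbs at each day, Rab7 climbs mostly by day 2, Rab32, Rab9 and Rab3d are lower at day 2 than at day 0 or day 4, and Rab27a falls and stays low.

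The 6 Rab genes of regulated secretion and lysosome-related organelles moved in opposite directions, with Rab38 up and Rab27a, Rab44 and Rab3d down. Their summed FPKM in WT was 99.2 to 122 at day 0, 69.9 to 78.7 at day 2, 115 to 129 at day 3 and 186 to 203 at day 4. KO gave 91.4 to 124.8 at day 0 and 181.5 to 194.5 at day 4.

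Rab38, which with its close relative Rab32 delivers cargo to melanosomes and other lysosome-related organelles, lies on chromosome 7 (88430273 to 88491572). WT values were 1.08, 1.23 and 1.97 FPKM at day 0, 25.9, 19.9 and 20.6 at day 2, 72.7, 74.7 and 73.7 at day 3 and 128, 109.6 and 121 at day 4. In KO the samples stood at 1.93, 1.46 and 1.38 FPKM, 31.6, 24.3 and 21.8, 74.6, 87.1 and 78.2 and 118, 126 and 128 at the same days. No 2 days overlapped in either genotype. The mean at WT day 4 was 84 times that at day 0, and in KO 77.8 times. The log2 change was 5.65 in WT (SE 0.167, limma adjusted p = 8.01e-17) and 5.60 in KO (adjusted p = 8.98e-17). Its steps in WT were 3.26 to day 2, 1.70 from day 2 to 3 and 0.69 from day 3 to 4.

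Rab32 did not follow its relative. The WT samples gave 67, 81.3 and 92.7 FPKM at day 0, 37, 43.5 and 50.3 at day 2, 35.1, 45.5 and 46.3 at day 3 and 47.7, 70.4 and 71.1 at day 4. It fell by 0.86 on the log2 scale to day 2 (limma adjusted p = 0.00162) and rose by 0.55 from day 3 to day 4 (adjusted p = 0.00278). The day 4 and day 0 groups overlapped, and the change between them did not pass in WT (-0.36, adjusted p = 0.14) or in KO (-0.43, adjusted p = 0.0757). With the mouse as a replicate block the same log2 changes passed in limma (adjusted p = 0.00355 in WT and 0.000746 in KO). The KO change also passed with equal weights, with only the groups compared and without WT mouse 480. Rab32 was lower in mouse 480 than in the other WT mice at every day.

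Rab27a, which docks secretory granules and lysosome-related organelles at the plasma membrane, lies on chromosome 9 (73044810 to 73097623). It measured 6.05, 4.11 and 4.92 FPKM at WT day 0 and 5.32, 6.24 and 6.86 FPKM at KO day 0. By day 4 the WT samples stood at 0.516, 0.331 and 0.515 FPKM and the KO samples at 0.405, 0.635 and 0.46, all far below day 0. On the log2 scale Rab27a fell by 2.04 (WT) and 2.25 (KO) (limma adjusted p = 3.21e-10 and 6.83e-11).
Rab44, a large Rab of granules and lysosomes with calcium-binding EF hands, on chromosome 17 (29114128 to 29148980), measured 5.23, 2.48 and 2.62 FPKM at WT day 0 and 0.059, 0.0671 and 0.0228 FPKM at WT day 4. KO day 0 gave 5.36, 3.69 and 3.5 FPKM, and the log2 changes were -2.03 and -2.25 (limma adjusted p = 4.32e-11 and 8.05e-12).
Rab37, under the filter and not tested, measured 0.82, 0.594 and 0.497 FPKM at WT day 0 and 0, 0.0219 and 0.0224 at day 4. The neutrophil marker sum, 5580 to 15300 FPKM at day 0 and 61.3 to 149 at day 4, moved with Rab27a, Rab44 and Rab37, and its part in these falls was not tested.

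Rab3d, known for vesicles of the osteoclast's secretory path, lies on chromosome 9 (21907491 to 21918199). Its WT values were 19.1, 20.3 and 19.3 FPKM at day 0, 6.17, 6.65 and 6.9 at day 2 and 9, 9.98 and 9.78 at day 4. It fell by 1.44 on the log2 scale to day 2 and then rose by 0.29 from day 3 to day 4 (limma adjusted p = 1.38e-08 and 0.0091). The later rise did not pass with only the groups compared in the fit (adjusted p = 0.107). It ended below its start, with a log2 change from day 0 to day 4 of -0.96 in WT and -0.95 in KO (adjusted p = 2.73e-06 and 3.45e-06), and the day 0 and day 4 samples did not overlap.

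The 10 Rab genes of early and recycling endosomes divided by subfamily member. In WT 3 rose and 7 fell from day 0 to day 4, beside 39.2% and 42.7% of all genes, and their summed FPKM went from 699 to 767 at day 0 to 534 to 542 at day 4. Rab5a, Rab5b and Rab31 rose, and Rab5c, Rab4a, Rab4b, Rab11a, Rab11b, Rab21 and Rab22a fell. The last 2 did not pass in KO (-0.19 and -0.14, limma adjusted p = 0.26 and 0.119). Neither difference between the genotypes passed the interaction test (0.22 for Rab21 and 0.19 for Rab22a, adjusted p = 0.999 and 0.999). The WT samples of Rab21 overlapped between the days, and its fall did not pass without mouse 529 or without mouse 531.

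The 3 Rab5 proteins share the early endosome and its fusion. Rab5c, on chromosome 11 (100715003 to 100738215), was by far the most abundant, with 274, 327 and 255 FPKM at WT day 0 and 202, 190.1 and 202 at day 4. On the log2 scale Rab5c fell by 0.52 (WT) and 0.67 (KO) (limma adjusted p = 2.21e-05 and 8.61e-07).
Rab5a, on chromosome 17 (53479234 to 53507678), gave 13.5, 25.2 and 18.7 FPKM at WT day 0 and 31.6, 32.4 and 29.8 FPKM at day 4, a log2 change of 0.72 (adjusted p = 0.00039; KO 0.69, adjusted p = 0.000591). Its day 0 values were spread widely, from 12.1 FPKM in KO mouse 481 to 25.6 in KO mouse 532, and all day 4 samples lay above them.
Rab5b, on chromosome 10 (128677170 to 128696284), measured 22.5, 23.1 and 22 FPKM at day 0, 17.5, 20.4 and 17.6 at day 2 and 33.7, 34.5 and 32.1 at day 4 in WT. Its log2 change was 0.55 in WT and 0.66 in KO (adjusted p = 0.00224 and 0.000442), with rises in both later WT steps (0.49 and 0.33). The call from day 3 to day 4 ended with equal weights for all days (adjusted p = 0.0634) and without mouse 480 (adjusted p = 0.0868). Gm13991, a near-identical copy, matches 648 bases of Rab5b at 99.38%. At WT day 4 the means of Rab5a, Rab5b and Rab5c were 31.3, 33.4 and 198 FPKM, so Rab5c remained the most abundant.

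Both Rab4 genes, which serve fast recycling to the cell surface, fell. Rab4b, on chromosome 7 (27168433 to 27178883), measured 112, 87.4 and 108 FPKM at WT day 0, 29, 32.8 and 32.7 at day 2 and 39.8, 36.6 and 41.4 at day 4, so that day 2 was the lowest. On the log2 scale Rab4b fell by 1.35 (WT) and 1.26 (KO) (limma adjusted p = 1.35e-09 and 3.73e-09). A gene model on the same strand, Gm21983, shares 65% of its exon bases. Rab4a was scarcer, with 3.55 ± 0.342 FPKM (SD, n = 3) at WT day 0 and 1.93 ± 0.172 at day 4 (log2 change -0.63, adjusted p = 0.0011).
Rab11a, of the recycling endosome, on chromosome 9 (64715300 to 64737756), gave 96.1, 114 and 153 FPKM at WT day 0, 43.7, 41.6 and 54.9 at day 2 and 54.8, 59.6 and 60.8 at day 4. It fell by 1.01 in WT and by 0.73 in KO (adjusted p = 1.55e-05 and 0.00059), without overlap of the groups. Its relative Rab11b fell by 0.57 and 0.47 (adjusted p = 3.72e-05 and 0.000347), and its pseudogene Rab11b-ps2 matches 654 bases at 99.85%.
Rab31, a Rab of transport between Golgi and endosomes, had 68.1 ± 12.4 FPKM (SD, n = 3) at WT day 0 and 93 ± 2.81 at day 4, a log2 change of 0.46 (adjusted p = 0.000633), and rose by 0.44 in KO. Rab21, an early endosome Rab bound to integrins, had 51.8 ± 12.3 and 37.9 ± 1.44 FPKM at WT days 0 and 4.

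Of the 12 Rab genes of the endoplasmic reticulum and Golgi, 11 were tested, and in WT 3 rose and 5 fell from day 0 to day 4, beside 39.2% and 42.7% of all genes. Their summed FPKM was 665 to 692 at WT day 0, 479 to 525 at day 2 and 472 to 516 at day 4. Rab2b, Rab6a and Rab18 rose, and Rab19, Rab1, Rab1b, Rab2a and Rab33a fell. Rab1 carries traffic from the endoplasmic reticulum to the Golgi, and its samples measured 235, 259.6 and 269.7 FPKM at WT day 0, 116, 117 and 131 at day 2 and 124, 124 and 132 at day 4. On the log2 scale Rab1 fell by 1 (WT) and by 0.86 (KO) (limma adjusted p = 2.43e-09 and 2.28e-08), and its WT day 2 and day 4 samples overlapped.
Its relative Rab1b, on chromosome 19 (5099207 to 5106996), had overlapping WT samples at day 0 and day 3, with 209.5, 191 and 185 FPKM and 203, 188 and 185 FPKM. The WT day 4 samples stood lower at 166, 137 and 165 FPKM, a fall of 0.30 from day 3 (adjusted p = 0.00113), and the KO step was -0.28 (adjusted p = 0.00215). The WT change from day 0 to day 4 was -0.32 (adjusted p = 0.00853) and did not pass without mouse 529, whose day 4 library was the lowest (adjusted p = 0.0626), or with only the groups compared in the fit (adjusted p = 0.0627).

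The paired genes Rab2a and Rab2b, which act between Golgi and endoplasmic reticulum and on lysosomes, moved in opposite directions. Rab2a, on chromosome 4 (8535469 to 8607702), measured 119, 112 and 125 FPKM at WT day 0 and 77.7, 76.8 and 87.8 at day 4, a log2 change of -0.55 in WT and -0.41 in KO (limma adjusted p = 2.78e-05 and 0.000642). Gm5865 matches 637 bases of its transcript at 96.39%.
Rab2b, on chromosome 14 (52261759 to 52279395), gave 2.81, 2.26 and 2.13 FPKM at day 0, 3.7, 3.82 and 3.12 at day 2, 5.68, 6 and 5.38 at day 3 and 7.74, 7.26 and 7.63 at day 4 in WT. No 2 WT days overlapped, and the log2 change to day 4 was 1.33 in WT and 1.29 in KO (adjusted p = 3.75e-09 and 6.13e-09). Rab2b stayed far below Rab2a in FPKM, and 59.3% of its exon bases overlap Gm43766, a gene model on the other strand.
Rab19, on chromosome 6 (39380709 to 39390666), had the largest fall of the 40 on the log2(FPKM + 1) scale in both genotypes. It measured 7.74, 4.61 and 6.48 FPKM at WT day 0, 0.244, 0.168 and 0.134 at day 2 and 0.288, 0.39 and 0.439 at day 4, and was listed at 0 in the WT day 3 library of mouse 480. KO gave 6.56, 4.59 and 4.03 FPKM at day 0 and 0.167, 0.0807 and 0.211 at day 4. The log2 changes were -2.38 and -2.37 (adjusted p = 8.47e-12 and 8.69e-12). The neutrophil marker sum also fell from day 0 to day 4, and its part was not tested. From day 3 to day 4 the WT mean of Rab19 went from 0.109 to 0.3725 FPKM, a called rise, and the neutrophil sum from 109.8 to 103. That call of Rab19 ended with equal weights and without mouse 531. Rab6a, of retrograde Golgi traffic, and Rab18, of the endoplasmic reticulum and lipid droplets, rose by smaller amounts, 0.49 and 0.30 on the log2 scale in WT (adjusted p = 0.00111 and 0.0244). The WT rise of Rab18 did not pass without mouse 480, with median scaling or with only the groups compared (adjusted p = 0.34, 0.0586 and 0.0639). Rab33a fell from 1.12 ± 0.297 to 0.351 ± 0.126 FPKM (SD, n = 3; adjusted p = 0.00428). Rab33b, an autophagy-linked Golgi Rab, changed by -0.23, Rab43 by 0.07 and Rab6b by 0.26 (adjusted p = 0.0527, 0.666 and 0.0511). Rab33b and Rab6b passed with the mouse as a replicate block (adjusted p = 0.0495 and 0.038) and with equal weights. Rab33b also passed with median scaling. Rab6b also passed with a pseudocount of 0.1, with no filter, without mouse 480 and without KO mouse 481. Gm45140, on the same strand, shares 75.4% of the exon bases of Rab43. Rab30, not tested, measured 0.143, 0.0734 and 0.157 FPKM at WT day 0 and 0.427, 0.481 and 0.62 at day 4.

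In the remaining group of 9, Rab genes of exocytosis, cilium and junctions, 3 rose and 3 fell in WT from day 0 to day 4, where 39.2% and 42.7% of all genes did. Rab10, Rab12 and Rab40b rose, and Rab8a, Rab8b and Rab28 fell. Rab10, which carries vesicles to the plasma membrane, on chromosome 12 (3247428 to 3309969), measured 42.8, 46.7 and 36.7 FPKM at WT day 0, 77.4, 88.2 and 82.3 at day 2 and 78.9, 76.8 and 76.1 at day 4. Its log2 change was 0.87 in WT and 0.86 in KO (limma adjusted p = 5.66e-07 and 7.14e-07), and the WT day 2 samples were already above all WT day 0 samples.
Rab8b, on chromosome 9 (66843609 to 66919705), acts on the same route from the Golgi to the surface, and measured 60.8, 70.0 and 65.3 FPKM at WT day 0 and 16.2, 25.3 and 21.4 at day 4. It fell by 1.61 in WT and 1.47 in KO (adjusted p = 3.76e-07 and 1.36e-06), with no overlap. Its closest relative Rab8a changed by less: 95.7, 92 and 93.4 FPKM at WT day 0 and 75, 76.8 and 80.3 at day 4, a fall of 0.27 (adjusted p = 0.00234). At day 0 Rab8b stood at 65.4 FPKM beside 93.7 for Rab8a, and at day 4 at 21 beside 77.4.

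Rab40b, whose protein directs a ubiquitin ligase, lies on chromosome 11 (121356121 to 121388251) and was the scarcest riser. It measured 0.0595, 0.203 and 0.0812 FPKM at WT day 0, 1.36, 1.16 and 1.29 at day 3 and 1.3, 1.68 and 1.56 at day 4. The log2 change was 1.17 in WT and 1.23 in KO (limma adjusted p = 8.07e-08 and 3.93e-08), and no day 4 sample overlapped day 0. Rab40b passed the filter only through its day 3 and day 4 groups, and Rab6b only through its groups from day 2 to day 4. Rab19, Rab27a, Rab33a, Rab39 and Rab44 passed it only through day 0. With no filter the calls of Rab40b, Rab19, Rab27a, Rab33a and Rab44 from day 0 to day 4 were kept. Rab6b and Rab39 had no such call in the main fit.
Rab28, a cilium Rab on chromosome 5 (41624973 to 41708193), gave 22.9, 27.8 and 32 FPKM at day 0 and 10.2, 11.1 and 12.6 at day 4 in WT. It fell by 1.21 in WT and 0.99 in KO (adjusted p = 5.53e-07 and 7.31e-06).
Rab13, a Rab of cell junctions that is also studied in osteoclasts, on chromosome 3 (90213715 to 90226387), dipped and returned: 19, 14.1 and 14.8 FPKM at WT day 0, 5.93, 5.62 and 7.68 at day 2, 10.2, 10.3 and 9.23 at day 3 and 12.4, 10.8 and 15.1 at day 4. Its fall to day 2 was 1.19 and its rise to day 3 was 0.57 (adjusted p = 1.22e-05 and 0.000591). From day 0 to day 4 the samples overlapped (-0.30, adjusted p = 0.146). Without mouse 531 the change of Rab13 was -0.47 and passed (adjusted p = 0.0497).
Rab12, which sends transferrin receptor to degradation, had 36.5 ± 2.23 FPKM (SD, n = 3) at WT day 0 and 51.5 ± 2.82 at day 4, and rose by 0.49 in WT and 0.66 in KO (adjusted p = 4.36e-05 and 9.9e-07). Rab40c and Rab23 changed by -0.12 and -0.07 in WT from day 0 to day 4 (adjusted p = 0.213 and 0.57). The group's summed FPKM was 297.6 to 304.9 at WT day 0, 236.6 to 261 at day 2 and 268 to 276 at day 4.

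**Figure D3:**
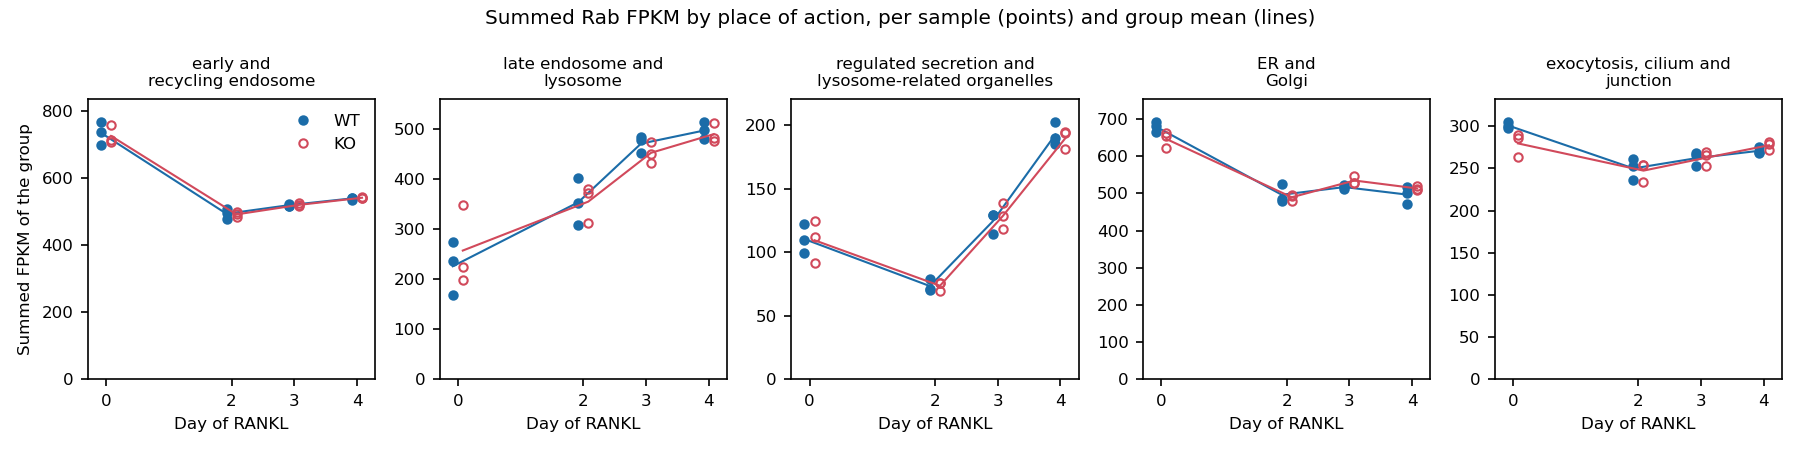
Summed FPKM (vertical axes, linear from 0, each panel with its own scale) of the Rab genes of each place of action by day of RANKL (horizontal axis), with points for samples (WT filled, KO open) and lines for group means. Late endosome and secretion sums end above their day 0 level, and early endosome and Golgi sums end below it.

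Counted step by step, falls outnumbered rises to day 2, and rises outnumbered falls in both later steps. Steps that follow each other share the samples of the day between them. From day 0 to day 2, 9 of 40 rose and 24 fell in WT, beside 38.5% and 37.5% of all genes. KO had 7 up and 21 down, beside 37.1% and 36.5%. The WT median was -0.42 and the KO median -0.34, while the medians of all genes were 0.0041 and 0.0032. The rises numbered 5 in WT without mouse 531 and 3 in KO without mouse 481. The falls numbered 23 to 25 in WT and 19 to 21 in KO when each mouse was left out in turn. In this step the mean neutrophil marker sum in WT went from 9834 to 158 FPKM and the megakaryocyte sum from 1052 to 28.3 FPKM. The osteoclast marker sum rose from 108.7 to 9360 FPKM. The part of such shifts in the Rab falls and rises of this step was not tested.

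From day 2 to day 3, 12 rose and 3 fell in WT (24.9% and 24.2% of all genes), and 15 rose and 1 fell in KO (23.6% and 20.3%). The largest WT rises were those of Rab38 (1.70), Rab40b (0.82) and Rab13 (0.57) on the log2 scale. The 3 that fell in WT were Rab8b, Rab27a and Rab23, of which Rab27a is named for completeness after its values were seen. Rab8b measured 19.3, 23.2 and 25.7 FPKM at WT day 2 and 14.4, 17.2 and 19.7 at day 3 (-0.39, limma adjusted p = 0.0146), groups that overlapped, and the call ended without mouse 529 and with only the groups compared (adjusted p = 0.0537 and 0.064). Rab27a measured 0.648, 1.03 and 0.798 FPKM at day 2 and 0.327, 0.518 and 0.755 at day 3, with overlap (-0.26, adjusted p = 0.0381), and its call ended when any of the 6 mice except 531 was left out, with equal weights, with a filter at 5 FPKM and with only the groups compared. Rab23, a cilium Rab of the hedgehog pathway, went from 1.62, 1.38 and 1.53 to 1.07, 1.26 and 1.23 FPKM (-0.20, adjusted p = 0.0324), a call that ended without mouse 480 or mouse 531 and without KO mouse 532, which enters through the shared spread, and also with equal weights and with only the groups compared. Without mouse 480, without mouse 529 or without KO mouse 532 the falls in WT numbered 1. The KO rises numbered 9 without mouse 528 or without mouse 532, and the KO fall was that of Rab8b (-0.44), with no fall called when either of these mice was left out.

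Between day 3 and day 4, 14 rose and 2 fell in WT (19% and 19.8% of all genes), and 13 rose and 1 fell in KO (18.2% and 17.6%). The largest WT rises were those of Rab38 (0.69), Rab32 (0.55) and Rab9 (0.55). The WT falls were those of Rab1b, given above, and Rab10, which went from 82, 89.4 and 92.4 to 78.9, 76.8 and 76.1 FPKM (-0.18, limma adjusted p = 0.038). The Rab10 call ended without mouse 529, without mouse 531, without KO mouse 528, with equal weights and with only the groups compared (adjusted p = 0.0666 to 0.237). The rises numbered 9 in WT without mouse 531, and 7 and 8 in KO without mouse 481 and without mouse 528. With all days weighted equally they numbered 7 in WT and 6 in KO. With the mouse as a replicate block, 3 fell in KO.

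The comparison of the genotypes asks whether loss of STING changed the Rab genes at each day. No Rab gene passed limma at an adjusted p of 0.05 in KO against WT at day 0, 2, 3 or 4, where 0.0992%, 0.0298%, 0.0198% and 0.0298% of all genes did. At an unadjusted p under 0.05 there were 1, 0, 1 and 1 of 40 at these days, beside 1.96%, 1.01%, 3.55% and 1.7% of all genes. The interaction of genotype and day called none either, for day 2 against day 0 (background 0.0397%) or for day 4 against day 0 (0.0496%), with 1 of 40 at an unadjusted p under 0.05 in each, beside 1.55% and 1.44% of all genes. All these shares of genes at an unadjusted p under 0.05 lie below that threshold itself. The tests thus gave fewer small p than would arise with no difference between the genotypes, and the cause was not tested. At day 4 the log2 difference was under 0.2 in size for 39 of 40 genes, and the 95% interval lay within 0.5 of zero for all 40. The median distance from the estimate to the end of that interval was 0.174. Days 2 and 3 gave the same count of 40 within 0.5, with median distances of 0.187 and 0.157. Day 0 was less precise, with a median distance of 0.344 and 24 of 40 intervals within 0.5. On the log2(FPKM + 1) scale, genes under 1 FPKM differ little even at a large fold difference, so these counts say little about them. At day 4 Rab19, Rab23, Rab27a, Rab33a, Rab39 and Rab44 had group means under 1 FPKM in both genotypes. Rab19, for example, had means of 0.3725 (WT) and 0.153 FPKM (KO). The samples of the genotypes did not overlap for 4, 1, 4 and 1 of the 40 at days 0, 2, 3 and 4, beside 5.88%, 3.91%, 7.47% and 3.98% of all genes.

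Rab9 had the smallest p at day 0. The WT mice had 49.8, 38.7 and 38.2 FPKM before RANKL and the KO mice 31.7, 32.3 and 31.1 FPKM, a log2 difference of -0.39 with a 95% interval from -0.67 to -0.11 (limma unadjusted p = 0.00807, adjusted p = 1). All 3 KO samples lay below all 3 WT samples, and at day 4 the groups had means of 39.2 and 38 FPKM. In KO it rose from day 0 to day 4 by 0.25 (adjusted p = 0.0341), a call that ended with each KO mouse left out, without WT mouse 529 and with median scaling (adjusted p = 0.0521 to 0.123). The interaction for that interval was 0.35 (adjusted p = 0.999).
Rab22a, of early endosomes, had the next smallest p at day 0, with 45.9, 44.3 and 49.1 FPKM for WT mice and 44.1, 41.3 and 37.6 for KO mice (-0.18, adjusted p = 1), groups without overlap. Rab7, with the widest interval at day 0, differed by 0.46 (95% interval -0.17 to 1.10), with overlap.

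Later days gave smaller differences. At day 2 the smallest p were those of Rab38 (0.21, 95% interval -0.03 to 0.45, limma adjusted p = 1) and Rab39 (0.13). At day 3 they were those of Rab12, a Rab of transferrin receptor turnover (0.11, adjusted p = 0.934), and Rab24 (0.15, adjusted p = 0.934). At day 4 Rab19 measured 0.288, 0.39 and 0.439 FPKM for WT mice and 0.167, 0.0807 and 0.211 for KO mice (-0.25, 95% interval -0.44 to -0.06, unadjusted p = 0.0131, adjusted p = 1), without overlap but under 0.5 FPKM in all samples. Rab4a followed with -0.14 (adjusted p = 1). For Rab38 at day 4, the gene with the largest change over the course, the difference was 0.05 with a 95% interval from -0.17 to 0.27.

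**Figure D4:**
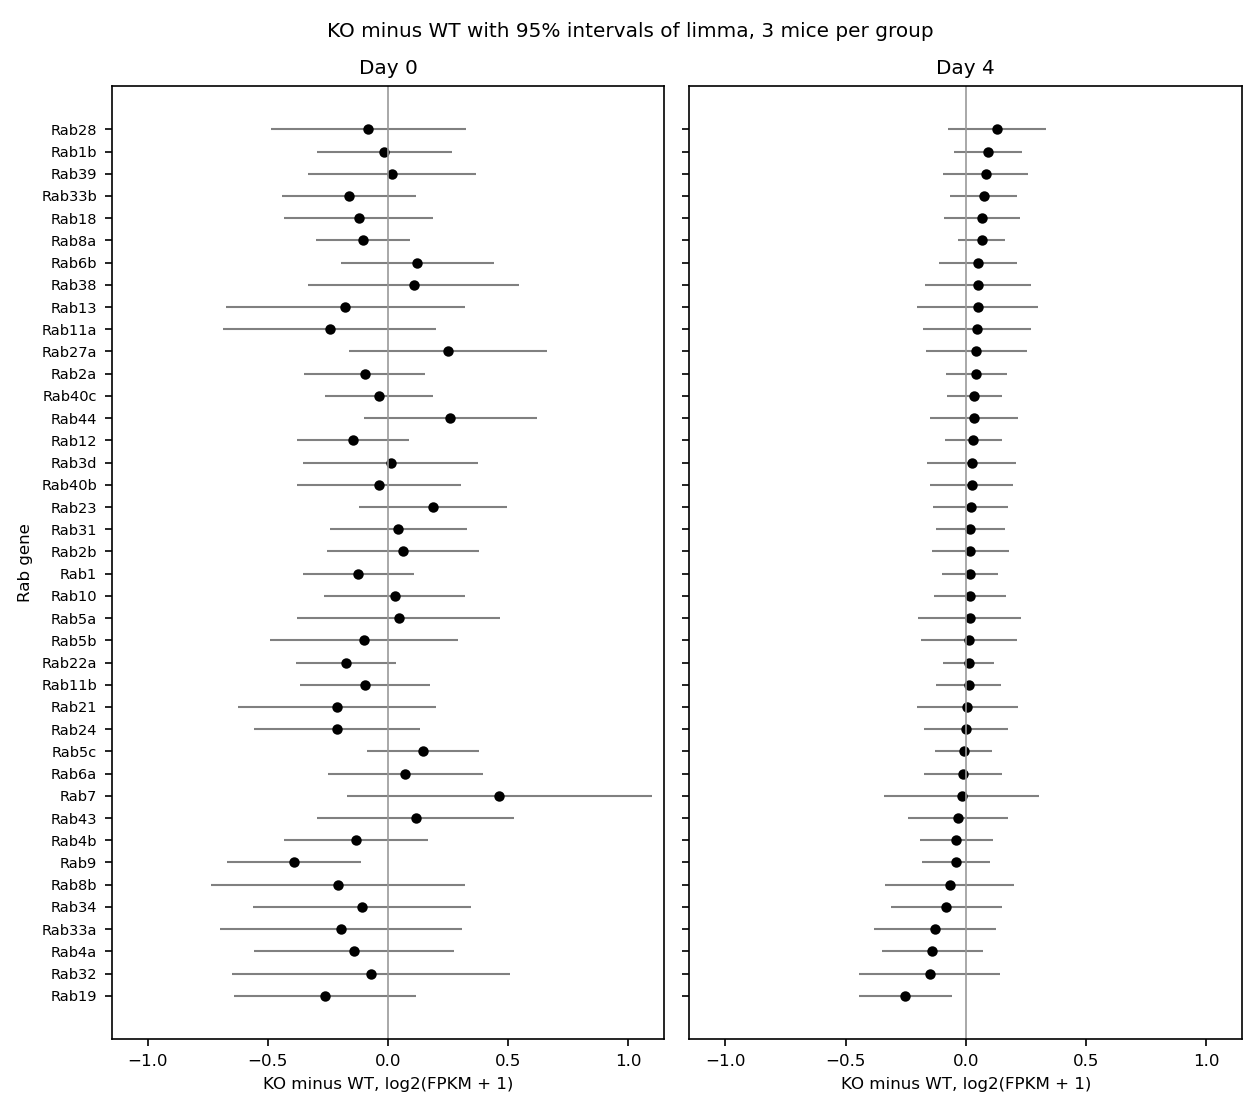
KO minus WT difference in log2(FPKM + 1) (horizontal axis) for the 40 tested Rab genes (rows) before RANKL and at day 4, as points with 95% intervals from limma (3 mice per group). At day 4 the intervals are narrower and lie within 0.5 of 0, while day 0 intervals are wider and that of Rab7 reaches past 1.

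Between the genotypes, the changes from day 0 to day 4 ran side by side over the genes. Of the 40, 12 rose in both genotypes, 15 fell in both, 4 fell in WT and did not pass in KO (Rab1b, Rab8a, Rab21 and Rab22a), 1 rose in KO and did not pass in WT (Rab9), and 8 passed in neither. Of all 10081 genes 36.4% rose in both, 38.8% fell in both, 11.1% passed in 1 genotype and not in the other, and 13.8% passed in neither. As a description over 40 genes that share libraries, the WT and KO changes had r = 0.993, the same sign in 37 genes and a median absolute difference of 0.127. Rab38 lies far from the other genes (5.65 in WT and 5.60 in KO) and weighs heavily on r. Such values were not computed for all genes, so they do not mark the Rab genes out. The difference between the genotypes was not called for any of the 5 genes that passed in 1 genotype and not in the other.

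**Figure D5:**
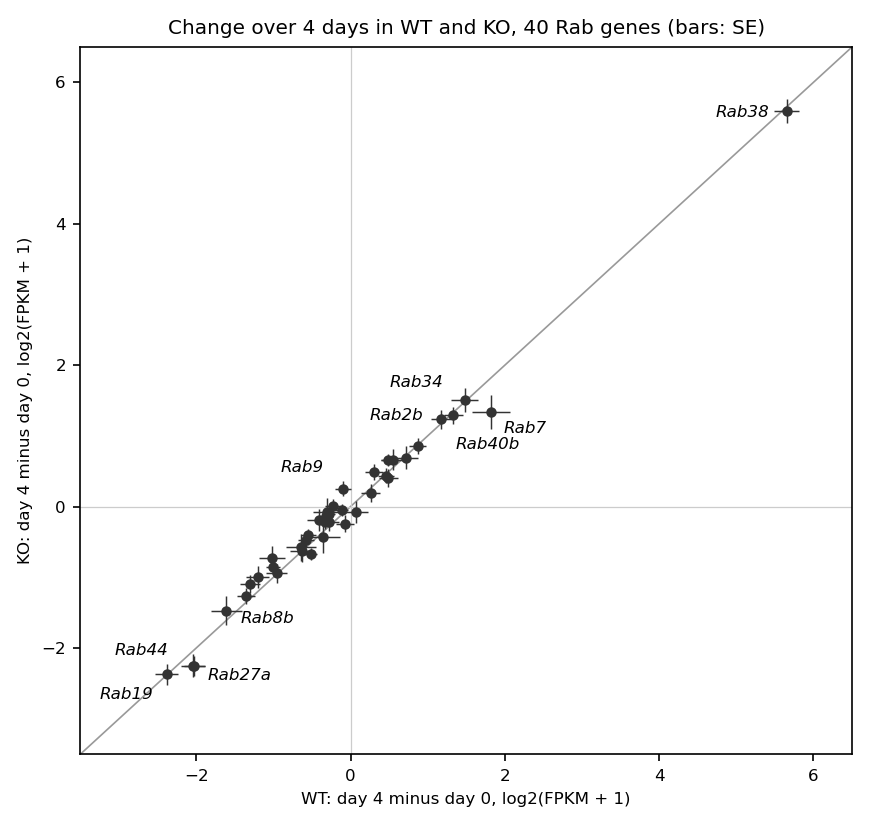
Log2(FPKM + 1) change from day 0 to day 4 in WT (horizontal axis) and KO (vertical axis) for the 40 tested Rab genes, with bars for 1 SE and the line of equality. Rab38 stands apart at 5.65 and 5.6, and Rab7 lies below the line at 1.82 and 1.34.

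Genes on broad lists of regulators, effectors and partners of Rab proteins gave the following counts. Not all are specific to Rab proteins, and a place on a list does not mean that the activity was measured. The GEF list holds Rab3gap1, a gene named for a GAP, and the GAP list holds Tbc1d7, Tbck, Tbc1d23 and Tbc1d24. The membrane cycle list also holds Rce1, Icmt, Pde6d and Yipf genes, and the effector list Lrrk1, Vps26a, Vps29 and Hps genes. Of 12 tested genes of the membrane cycle list (GDI, prenylation, escort and the others just named), 3 rose and 6 fell in WT from day 0 to day 4, with a median of -0.41. Of 36 genes of the GEF list 18 rose and 11 fell (median 0.26), and of 30 of the GAP list 20 rose and 8 fell (median 0.63). Of 50 genes of the effector list 24 rose and 13 fell (median 0.17). All genes gave 39.2% risers, 42.7% fallers and a median of -0.07. The KO counts were 4 and 5, 17 and 13, 19 and 8, and 23 and 13.

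The largest rises were those of St5, Rilpl1, Tbc1d2b and Usp6nl. St5, an exchange factor of the DENN family, went from 0.334 ± 0.0542 FPKM (SD, n = 3) at WT day 0 to 29.7 ± 3.15 at day 4, a log2 change of 4.52 (limma adjusted p = 1.38e-17; KO 4.58). Rilpl1, which binds Rab8 and Rab10 phosphorylated by Lrrk kinases, went from 2.19 ± 0.228 to 29.5 ± 4.05 FPKM (3.25, adjusted p = 2.98e-14). Tbc1d2b, a GAP of endosomes, went from 8.75 ± 1.88 to 65.5 ± 8.33 FPKM (2.78, adjusted p = 1.39e-10). Usp6nl, a GAP for Rab5, went from 2.05 ± 0.345 to 14.9 ± 2.27 FPKM (2.38, adjusted p = 2.22e-10).
Those that fell most were Rab3il1, Tbc1d10c, Rce1 and Dennd1c. Rab3il1, an exchange factor for Rab8, went from 114 ± 12 to 10.4 ± 2.67 FPKM (-3.37, limma adjusted p = 4.22e-10). Rce1, a protease that processes prenylated proteins, went from 42.4 ± 4.67 to 14.7 ± 1.74 FPKM (-1.47, adjusted p = 5.99e-09). Tbc1d10c changed by -1.70 and Dennd1c by -1.35 (adjusted p = 1.27e-07 and 6.07e-08). Tbc1d10c is a GAP of blood cells and had 3.1 ± 1.76 FPKM at WT day 0, beside the fall of the neutrophil and B cell marker sums, whose part was not tested.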

How the data were processed

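RNA of 24 libraries from 6 mice was sequenced, and the authors deposited 1 table of FPKM values for 10721 genes. The build was mm10, and HISAT2 2.0.5, Cufflinks 2.2.1 and Cuffdiff are named, per the submitters' processing notes. The sources used here do not state how the table's genes were chosen, whether counting used strand, or the read depth. The submitters labelled the set as sig genes, and genes such as Gdi2, Appl1 and Vps35 were absent from it. Shares of all genes are therefore shares of the tested genes of this table, not of the transcriptome. The limma package 3.58.1 (R 4.3.3) was run on log2(FPKM + 1) of the 10081 genes with a mean of at least 1 FPKM in a group. The fit took 1 mean per genotype and day over all 24 libraries, with weights by day (0.355, 1.2, 1.7 and 1.38) for the unequal spread, and Benjamini-Hochberg adjustment over all tested genes at 0.05. Fold changes on this scale understate those of low genes. The fit was run on simulated data for KO against WT at day 0 and day 4 and for WT day 4 against day 0. Each library was drawn independently there, so correlation between libraries of a mouse was not covered. Replicates are mice. The labels give the same mouse at each day, and deviations of a mouse's libraries from their group means correlated with a median r per mouse of 0.0896 to 0.331, so the mouse as a replicate block was an alternative. Other alternatives were equal weights, a pseudocount of 0.1, no filter, median scaling, a 5 FPKM filter, fits to only the groups compared, and each mouse left out. Values in full are given for the 8 largest rises and the 8 largest falls from day 0 to day 4 in WT, the 2 smallest p per genotype comparison, the 5 most abundant genes, Rabs known in osteoclasts, the 3 largest rises and falls per later step in WT, and the 4 largest rises and falls among regulators and effectors. Other members are named to account for all. Members and lists were chosen with earlier results of these data known. Gene positions come from RefSeq (GRCm38), overlaps from GENCODE vM21, and near-identical copies from blastn 2.17.0.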

Additional observations from a re-analysis of the deposited data

How the results depend on the processing

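The counts of Rab genes called from day 0 to day 2 and from day 0 to day 4 stayed within 1.5 times under every alternative that kept all mice. From day 2 to day 3 the WT falls (3) numbered 1 with equal weights, 1 with a filter at 5 FPKM and 0 with only the groups compared, and the KO fall (1) became 2 with only the groups compared. From day 3 to day 4 the rises numbered 7 in WT (14) and 6 in KO (13) with equal weights, and the WT falls (2) numbered 1 with equal weights and 1 with only the groups compared. The KO fall there (1) became 2 with median scaling and 3 with the replicate block, which pairs libraries of a mouse. In every comparison between days the block lost no call, and it added 0 to 4 Rab genes per comparison. Between genotypes it could not be fitted, because each mouse has 1 genotype. With each mouse left out in turn, rises and falls in WT ranged over 5 to 9 and 23 to 25 (day 0 to 2), 11 to 12 and 1 to 2 (day 2 to 3), 9 to 14 and 1 to 3 (day 3 to 4), and 12 to 13 and 17 to 19 (day 0 to 4). In KO they ranged over 3 to 7 and 19 to 21, 9 to 18 and 0 to 2, 7 to 13 and 1 to 2, and 11 to 13 and 14 to 17. Genotype and interaction calls were 0 in every alternative run. No result reversed, and the cause of these differences was not tested. Read depth is unknown, so counting error of genes under 1 FPKM, such as Rab44 and Rab37 at day 4, could not be given.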
